A study of Mus musculus with 6 samples.

Results

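The 8 genes described here encode costimulatory receptors of the TNF receptor family (Tnfrsf9, Tnfrsf4, Tnfrsf18, Tnfrsf1b and Cd27) and of the immunoglobulin superfamily around CD28 (Cd28, Icos and Cd226). They were taken by name from the 23284 genes with values, and the choice was made with the cytarabine against control difference of these same libraries known. Their differences between the groups are therefore given as a description, with no test. RNA was sequenced from C1498-EGFP cells, a murine acute myeloid leukemia (AML) line labelled with retroviral GFP and grown from 1 single-cell clone. The cells had been injected intravenously into C57BL/6 J mice, young adult females by the study's methods, whose own immune cells were intact, and GFP+ CD49b+ cells were sorted from the marrow of the femurs, tibias and pelvis on day 21. There were 3 libraries from cytarabine-treated mice and 3 from control mice, 1 mouse each, and every mouse of both groups carried the leukemia. The labels give the controls as PBS-treated, whereas the methods call them untreated. For the mice that were imaged the methods place cytarabine on the 2 days just before collection, and no separate schedule is given for the mice used for RNA. Cytarabine is a nucleoside analog that blocks DNA synthesis, and the comparison addresses how AML cells that remain after the drug differ from those in control marrow.

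Costimulatory receptors are best known from T cells and NK cells, and in T cells they add a second signal to that of the antigen receptor. Receptors of the TNF family are engaged by trimeric ligands of the TNF family and recruit TRAF adaptor proteins, which lead to NF-kB, a family of transcription factors that is held in the cytoplasm by inhibitory IkB proteins. CD28 and ICOS bind ligands of the B7 family and recruit phosphoinositide 3-kinase, and CD226 (DNAM-1) binds the poliovirus receptor and nectin-2. 4-1BB (Tnfrsf9), OX40 (Tnfrsf4) and GITR (Tnfrsf18) are known as receptors that T cells carry at higher level after activation, whereas CD27 and CD28 are already present on resting T cells.

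Values are FPKM, read numbers scaled to transcript length and library size, so levels of different genes can be set side by side. The spacing of low FPKM values placed the depth at 11460000 to 18800000 reads per library, and 3 reads on a transcript of 2000 bases would then be worth 0.0886 to 0.145 FPKM. The 6 libraries carried RNA of other tissues in unequal amounts. The summed FPKM of 9 colon genes, led by Zg16 and Tff3, was 3606 and 3957 in cytarabine libraries 2 and 3 and 1757 in control library 1, against 20.0 to 282 in the other 3 libraries. The 8 heart genes, led by Nppa and Actc1, summed to 7.46 to 685 in the cytarabine group and to 52.5 to 2518 in the control group. The 8 neutrophil genes, led by S100a8 and S100a9, summed to 189 to 1433 in the cytarabine group and to 1438 to 2043 in the control group. Cytarabine libraries 2 and 3, at 199 and 189, lay far below all controls, whereas the sum of cytarabine library 1 was close to the 1438 of control library 1. Differences are therefore also given on either side of this divide, once between cytarabine library 1 and control libraries 2 and 3 (little colon transcript) and once between cytarabine libraries 2 and 3 and control library 1 (much colon transcript).

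The T cell receptor genes Cd3g and Cd3e were abundant in all 6 libraries, with mean levels of 521 and 146 FPKM in the cytarabine group and 613 and 178 FPKM in the control group. The coreceptor genes Cd4 and Cd8a stayed under 1 FPKM in every library, as did Foxp3, which defines regulatory T cells and lay between 0.298 and 0.521 FPKM. The 12 myeloid leukemia genes summed to 36.5 to 184 FPKM in the cytarabine group and to 46.2 to 72.0 FPKM in the control group. Their highest sum was that of cytarabine library 1, where the granule genes Elane and Mpo reached 81.7 and 71.1 FPKM against at most 12.3 FPKM in the other libraries. The sort marker CD49b, encoded by Itga2, was at 7.79 to 8.11 FPKM in the cytarabine group and at 10.6 to 13.3 FPKM in the control group. Of the other genes of the T cell receptor complex in the list, Cd3d was at 7.66 to 9.99 FPKM in the cytarabine group and at 3.61 to 4.47 FPKM in the control group. Cd247 stayed under 1 FPKM in every library, as did the T cell gene Cd5. Which cells carried these transcripts was not tested.

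In control mice the receptor transcripts spanned a wide range. Cd27 led at 122 ± 14.1 FPKM (SD, n = 3 here and for each group below), which placed its mean over all libraries above 95.2% of the genes with any expression. Cd28 came next at 13.7 ± 1.20 FPKM, so that Cd27 stood 8.89-fold above it. Cd226 at 8.48 ± 1.33 FPKM and Tnfrsf1b at 7.31 ± 0.537 FPKM followed with overlapping ranges. Tnfrsf9 was at 2.96 ± 1.38 FPKM, Tnfrsf18 at 2.16 ± 0.874 FPKM, Icos at 1.20 ± 0.444 FPKM and Tnfrsf4 at 0.623 ± 0.165 FPKM, and each of these overlapped in range with the next. In cytarabine-treated mice Cd27 was again highest and Cd28 second, now 2.84-fold apart. Tnfrsf9 moved from the fifth to the third place, although its range still overlapped with that of Tnfrsf1b, above which it lay in 2 of 3 libraries. No other neighbours in the cytarabine order overlapped.

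**Figure D1:**
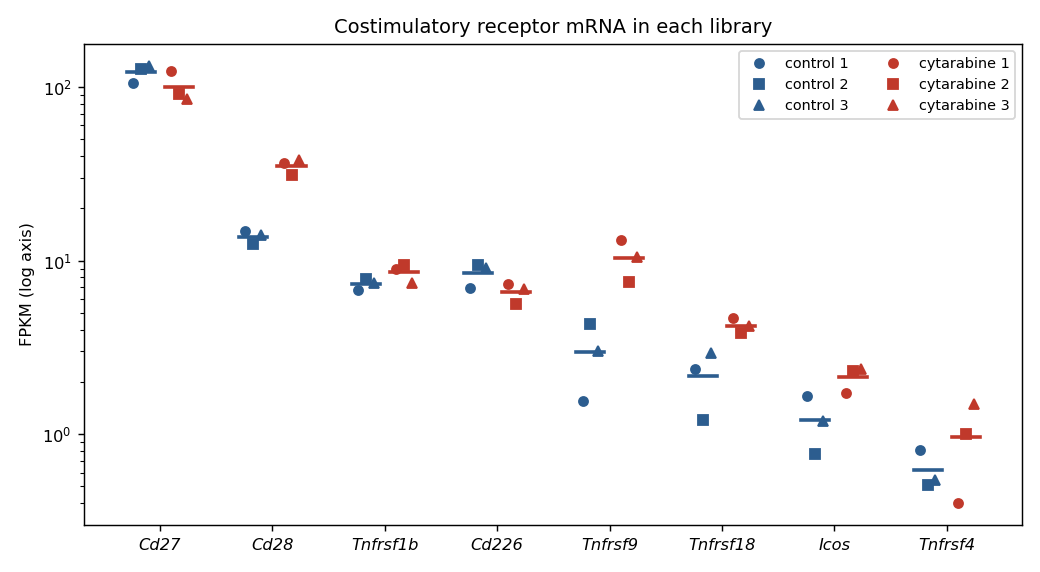
FPKM of the 8 receptor genes in each library on a log axis, with 3 cytarabine and 3 control libraries per gene and the group means marked. Cd27 lies highest in both groups, and the groups stand apart for Tnfrsf9, Cd28, Tnfrsf18 and Icos.

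The mean over the 6 libraries reached 1 FPKM for 7 of the 8 receptors. Of these, 4 were higher in every cytarabine library than in any control library (Tnfrsf9, Cd28, Tnfrsf18 and Icos), none was lower in every one, and 3 overlapped. Among all 11703 genes at that level, 10.9% were higher and 12.9% lower without overlap. Since the genes were chosen on this contrast, nothing is read from these counts set side by side. The median log2 difference of the 7 receptors was 0.52, against -0.0015 over all genes. After quantile normalization only Tnfrsf9 and Cd28 stayed without overlap, and they are also the only ones of the 4 whose mean reached 5 FPKM. In bulk RNA such as this, fewer cells of a kind and less RNA per cell cannot be told apart, and the part that the foreign transcripts described above had in these differences was not tested.

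Tnfrsf9, which encodes 4-1BB, showed the largest ratio between the groups among the 8. It reached 13.1, 7.55 and 10.4 FPKM in cytarabine libraries 1 to 3 and 1.56, 4.32 and 3.01 FPKM in control libraries 1 to 3. Every cytarabine value lay above the highest control value, and control library 1 was the lowest of the 6. The means of 10.4 ± 2.78 and 2.96 ± 1.38 FPKM differed 3.50-fold, or by 1.55 ± 0.32 (SE) on the log2(FPKM + 1) scale that is used for every difference here. The difference ranged from 1.27 to 1.80 with any 1 library left out. It was 1.61 among the libraries with little colon transcript and 1.95 among those with much of it. At the depth placed above, these levels correspond to roughly 42 to 327 reads per library.

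Tnfrsf9 lies on chromosome 4 (chr4:150914562-150946102, GRCm38, plus strand) and has several annotated starts, between which the gene-level values do not distinguish. The RefSeq promoter table (GRCm38.p6) held 6 windows for 5 of the 8 genes, Tnfrsf9 with 2 windows and Tnfrsf4, Tnfrsf18, Tnfrsf1b and Cd27 with 1 each. The 250 bases before each start were searched on both strands for AP-1 (TGANTCA), NFAT (TGGAAA), the NF-kB motif and the CArG box of serum response factor (SRF), motifs that were chosen after the expression values were seen. A match is only a run of letters and not evidence of binding. The window before the Tnfrsf9 start at position 150927999 runs into an annotated exon of the gene after position 150927917. Past that point, in or after the exon, it held 2 NF-kB matches, which overlap in all but their outer bases, and 1 AP-1 match. Both stretches are shown 5′ to 3′ on the plus strand with the match in capitals, the first at chr4:150927948-150927973 with the NF-kB match that begins 43 bases before the start, and the second at chr4:150927975-150927998 with the AP-1 match that begins 15 bases before it.
Tnfrsf9, NF-kB match: gagcagctGGGGATTTCCcaggaggc
Tnfrsf9, AP-1 match: ctgctcagtTGAGTCAcaggtcct
Of 32851 promoters of the table, 3.9% held the NF-kB motif and 6.75% the AP-1 motif. The window before the other Tnfrsf9 start of the table (chr4:150919905-150920154) held an NFAT match, a motif in 18.6% of promoters. It is shown to contrast the 2 windows of the same gene. Neither window lies before the first annotated base of the gene, at 150914562.
Tnfrsf9, upstream start: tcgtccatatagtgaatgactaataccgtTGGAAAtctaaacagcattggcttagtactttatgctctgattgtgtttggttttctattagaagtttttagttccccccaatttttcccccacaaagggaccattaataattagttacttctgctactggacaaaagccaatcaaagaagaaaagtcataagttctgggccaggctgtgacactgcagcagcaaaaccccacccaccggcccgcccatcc
The Tnfrsf18, Tnfrsf1b and Cd27 windows held none of the 4 motifs, and Tnfrsf4 held 1 NFAT match. The CArG box, present in 1.47% of promoters, was in none of the 6 windows. The Cd27 window (chr6:125237028-125237277, minus strand) is printed as that of the most abundant member, whose groups overlapped.
Cd27: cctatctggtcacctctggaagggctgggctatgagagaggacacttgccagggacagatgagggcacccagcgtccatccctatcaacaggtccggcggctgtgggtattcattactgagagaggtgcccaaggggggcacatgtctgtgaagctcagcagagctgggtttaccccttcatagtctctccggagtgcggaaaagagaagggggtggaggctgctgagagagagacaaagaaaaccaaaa

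Cd28, the receptor for CD80 and CD86 whose tail recruits phosphoinositide 3-kinase, stood apart between the groups. It was at 36.4, 30.9 and 37.9 FPKM in cytarabine libraries 1 to 3 and at 14.7, 12.4 and 14.0 FPKM in the controls. Every cytarabine library therefore exceeded every control library by more than the spread within either group. The means of 35.1 ± 3.69 and 13.7 ± 1.20 FPKM differed 2.56-fold, with a log2 difference of 1.29 ± 0.11. Leaving out any 1 library gave 1.23 to 1.38, and the difference was 1.40 among the libraries with little colon transcript and 1.17 among those with much of it. Cd28 lies at chr1:60716800-60773359, and about 631 to 2411 reads per library stood behind its values.

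Tnfrsf18, which encodes GITR, was lower in level but also stood apart. It was at 4.66, 3.82 and 4.20 FPKM in the cytarabine libraries and at 2.36, 1.21 and 2.92 FPKM in the controls. The cytarabine values lay close together and the control values were spread more widely below them. The ratio of the means was 1.95 and the log2 difference 0.76 ± 0.24, with a range of 0.52 to 0.94 when 1 library was left out. It was 0.94 among the libraries with little colon transcript and 0.57 among those with much. Only about 15 to 71 reads per library lay behind these values, so counting error is larger here than for Cd28. After quantile normalization the difference was 0.53 and the groups overlapped.

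Icos, which encodes the inducible costimulator and lies on chromosome 1 beyond Ctla4 from Cd28, was at 1.72, 2.31 and 2.37 FPKM in the cytarabine libraries and at 1.65, 0.765 and 1.19 FPKM in the controls. The groups were barely apart, with the lowest cytarabine value 1.04-fold above the highest control value. The ratio of the means was 1.78 and the log2 difference 0.52 ± 0.24, with 0.47 among the libraries with little colon transcript and 0.33 among those with much. This difference depended on the scale, at 0.82 with a pseudocount of 0.1 and 0.20 after quantile normalization, where the groups overlapped. The highest values were those of cytarabine libraries 2 and 3, which carried the most colon transcript.

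**Figure D2:**
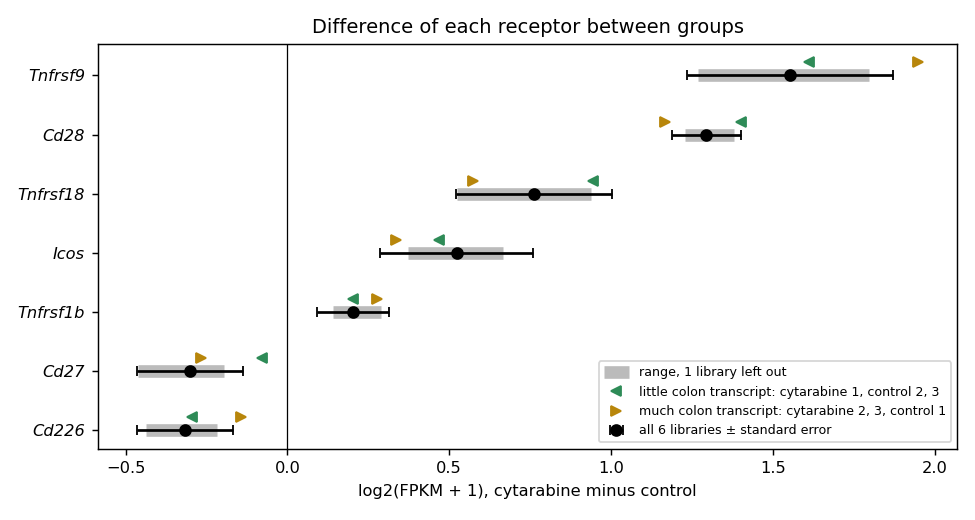
Difference in mean log2(FPKM + 1), cytarabine minus control, for the 7 receptors that passed the level filter, with bars for the standard error, grey bands for the range with 1 library left out, and triangles for the libraries with little (green) or much (yellow) colon transcript. Tnfrsf9 (1.55) and Cd28 (1.29) lie farthest to the higher side, and Cd27 (-0.30) and Cd226 (-0.32) lie on the lower side.

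The remaining receptors overlapped between the groups. Tnfrsf1b, the second receptor for TNF, was at 8.90, 9.40 and 7.44 FPKM in the cytarabine libraries and at 6.73, 7.79 and 7.42 FPKM in the controls. Its log2 difference was 0.20 ± 0.11, and cytarabine library 3 lay within the control range. The difference was 0.20 among the libraries with little colon transcript, 0.28 among those with much and 0.084 after quantile normalization. Without cytarabine library 3 or without control library 2 its groups no longer overlapped, which made 5 receptors higher without overlap.

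Cd27, the receptor for CD70, was at 123, 90.8 and 84.8 FPKM in the cytarabine libraries and at 106, 127 and 132 FPKM in the controls. The control mean was 1.22-fold the cytarabine mean, with a log2 difference of -0.30 ± 0.16. The 3 lowest values belonged to the 3 libraries with the most colon transcript, 2 of which are cytarabine libraries, and the difference was -0.08 among the libraries with little of it and -0.27 among those with much. Cd226, known for its part in the killing of tumor cells by NK and CD8 T cells, was at 7.34, 5.61 and 6.85 FPKM in the cytarabine libraries and at 6.96, 9.45 and 9.03 FPKM in the controls. The log2 difference was -0.32 ± 0.15, and again the 3 lowest values came from the libraries rich in colon transcript. The difference was -0.30 among the libraries with little colon transcript and -0.14 among those with much. Without cytarabine library 1, or without control library 1, both Cd27 and Cd226 were lower in every cytarabine library, with differences down to -0.46 for Cd27 and -0.44 for Cd226. On either side of the colon divide both were lower without overlap. Tnfrsf1b was higher without overlap there, beside the 4 receptors named above. With 1 library against 2, or with 1 library left out, groups stand apart more easily. The share over all genes is not given for these settings, so nothing is read from these separations.

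Tnfrsf4, which encodes OX40, did not reach a mean of 1 FPKM. It was at 0.401, 1.00 and 1.50 FPKM in the cytarabine libraries and at 0.812, 0.509 and 0.548 FPKM in the controls. The 3 highest values were those of the libraries rich in colon transcript, and about 4 to 17 reads per library lay behind them. Without the level filter its log2 difference was 0.24 ± 0.23, and the groups overlapped. Tnfrsf4 and Tnfrsf18 are neighbours on chromosome 4, 9552 bases apart, and stood at different levels in both groups.

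**Figure D3:**
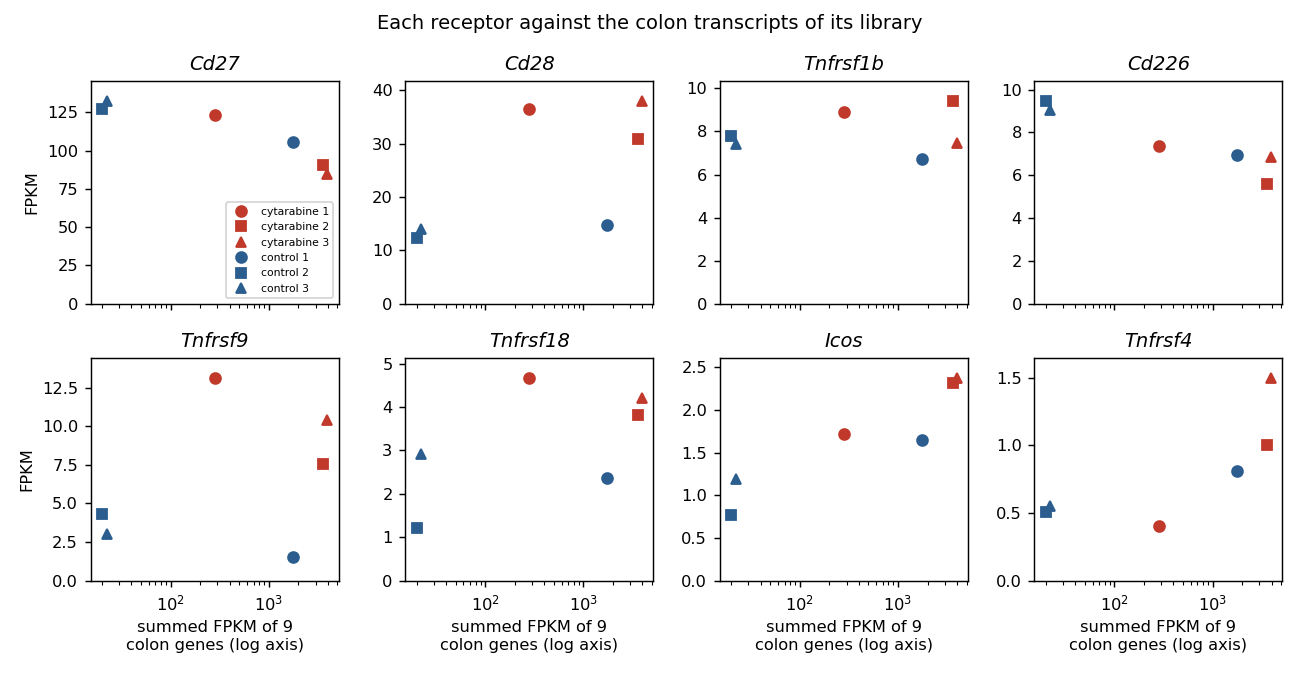
FPKM of each receptor in the 6 libraries (vertical axes, linear and starting at 0) against the summed FPKM of 9 colon genes in the same library (log axis). On either side of the colon axis Tnfrsf9, Cd28, Tnfrsf18, Icos and Tnfrsf1b are higher in the cytarabine libraries, while Cd27 and Cd226 are lowest in the 3 libraries at its right end.

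The ligands of these receptors were measured in the same sorted cells. Of 11 ligand genes 5 reached a mean of 1 FPKM, and 1 of these, Tnf, was higher at an unadjusted p under 0.05 in limma, a threshold that 7.6% of all genes passed in the higher and 9.81% in the lower direction. No gene of the 11703 passed an adjusted p of 0.05, the smallest being 0.0551, and the calls named from here on are at the unadjusted threshold. Tnf, the ligand of Tnfrsf1b, was at 36.1, 22.3 and 30.8 FPKM in the cytarabine libraries and at 17.3 to 19.6 FPKM in the controls, without overlap (log2 difference 0.62 ± 0.18, adjusted p = 0.193 in limma). Tnfsf9, which encodes the ligand of 4-1BB, was at 12.1, 7.57 and 7.29 FPKM against 5.82, 6.53 and 7.36 FPKM, and its groups overlapped (0.37 ± 0.20, adjusted p = 0.367). Lta, encoding lymphotoxin alpha, also overlapped (0.38 ± 0.20, adjusted p = 0.356). Among the ligands of CD226, Pvr differed by 0.10 ± 0.10 (adjusted p = 0.592). Pvrl2, the listed name of the nectin-2 gene, was at 5.88, 9.14 and 5.85 FPKM in the 3 libraries rich in colon transcript and at 0.215 to 0.982 FPKM in the others. The ligand genes of the remaining receptors were low, with Cd70 listed at 0 in all 6 libraries, Tnfsf4 and Tnfsf18 at most at 0.160 and 0.0410 FPKM, and Cd80, Cd86 and Icosl at most at 0.797, 1.38 and 2.03 FPKM. The median difference of the 5 ligands was 0.38, and without control library 2 the number called higher was 2.

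**Figure D4:**
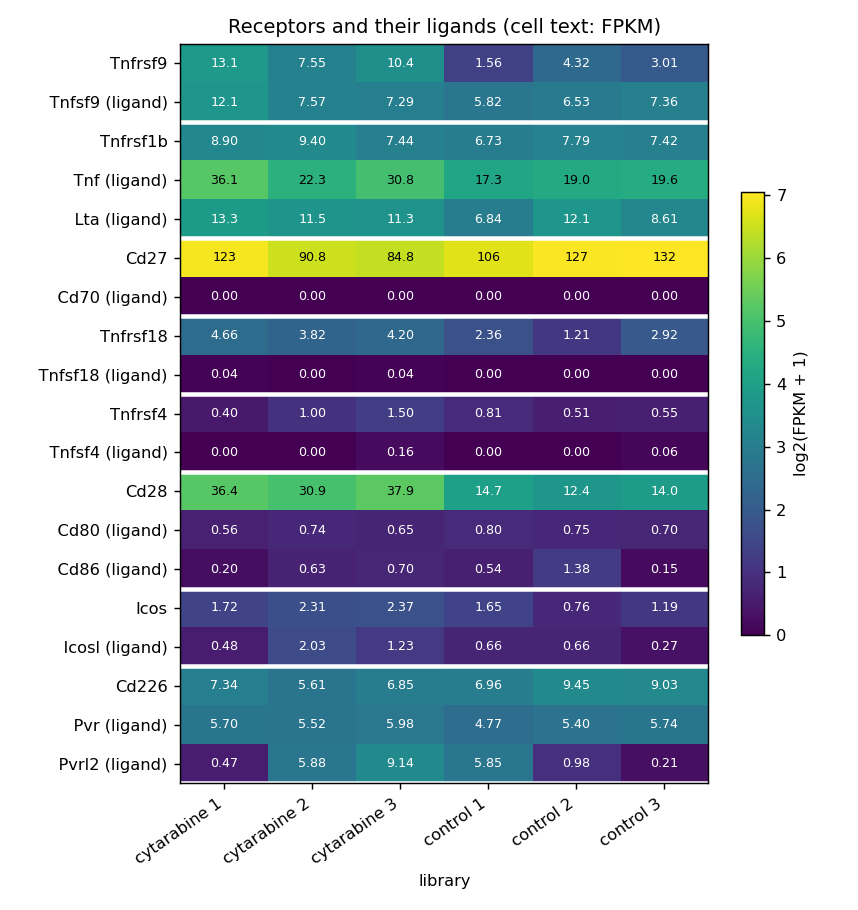
Heat map of each receptor above its ligands (rows) in the 6 libraries (columns), colored by log2(FPKM + 1) with the FPKM written in each cell. Tnf is higher in all 3 cytarabine libraries, Pvrl2 follows the libraries rich in colon transcript, and Cd70 is listed at 0 throughout while its receptor Cd27 is the most abundant of the 8.

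Relatives of the 8 receptors were compared in the same way. Of 6 inhibitory or activating relatives of CD28 and CD226, 3 were called higher and 0 lower, with a median difference of 0.63. Pdcd1, which encodes the inhibitory receptor PD-1, was at 41.0, 33.2 and 29.7 FPKM against 18.4, 11.5 and 20.9 FPKM (1.02 ± 0.24, adjusted p = 0.166). Ctla4, which encodes the inhibitory receptor that shares its ligands with CD28 and lies between Cd28 and Icos on chromosome 1, was at 1.50, 3.85 and 1.47 FPKM against 1.18, 0.0466 and 0.201 FPKM (1.15 ± 0.43, adjusted p = 0.266). Crtam, a partner of a nectin-like ligand, was at 7.35, 2.81 and 3.71 FPKM against 0.498, 1.81 and 2.56 FPKM (1.11 ± 0.43, adjusted p = 0.278). All 3 stood without overlap, Ctla4 and Crtam with their groups close to each other. Without cytarabine library 3 or without control library 2, 1 of the 6 was called, and without any of the other libraries, 2. Of 11 other TNF receptors tested, 2 were called higher and 1 lower (median 0.15). Fas, the death receptor, was at 4.93, 5.59 and 6.32 FPKM against 2.84, 3.88 and 2.39 FPKM (0.72 ± 0.17, adjusted p = 0.166), and Tnfrsf26, another gene of the family, differed by 0.67 ± 0.16 (adjusted p = 0.167). Tnfrsf19 was lower by little but evenly, at 47.0 to 47.9 FPKM against 55.6 to 58.2 FPKM (-0.25 ± 0.05, adjusted p = 0.15). Without cytarabine library 1, 4 of these receptors were called higher.

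Of 11 other coreceptors and adhesion molecules of T cells, 5 were called higher and 2 lower (median 0.43). Icam1, a ligand of the integrin LFA-1, was at 27.6 to 38.6 FPKM against 21.2 to 24.7 FPKM (0.58 ± 0.14, adjusted p = 0.167). Dpp4 (CD26) differed by 1.02 ± 0.26 and the tetraspanin gene Cd82 by 0.29 ± 0.09 (adjusted p = 0.18 and 0.208). Dpp4 was at 2.60, 4.96 and 5.15 FPKM against 1.93, 1.19 and 1.47 FPKM. Within each group it was highest in the libraries rich in colon transcript. Itgal, which encodes the LFA-1 alpha chain, lay on the other side at 19.8 to 26.4 FPKM against 31.1 to 37.7 FPKM (-0.58 ± 0.13, adjusted p = 0.159). Ly9, of the SLAM family, differed by -0.32 ± 0.09 (adjusted p = 0.202). Without cytarabine library 1, 3 of the list were called higher, and without control library 1 the number called lower was 3.

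Downstream of the TNF family receptors, TRAF adaptors and their partners had 5 of 13 genes called higher and 0 lower, with a median of 0.10. Traf1, the TRAF that is itself an NF-kB target, was at 4.06, 3.90 and 3.52 FPKM in the cytarabine libraries and at 0.859, 0.759 and 1.35 FPKM in the controls (1.29 ± 0.19, adjusted p = 0.131). Birc3 and Birc2, which encode the ubiquitin ligases cIAP2 and cIAP1 that bind TRAF2, differed by 0.67 ± 0.18 and 0.24 ± 0.08 (adjusted p = 0.182 and 0.221). Without cytarabine library 3 or without control library 3, 2 of its genes were called higher, and 3 were called without cytarabine library 2, control library 1 or control library 2. Of 16 NF-kB genes, 9 were called higher and 0 lower (median 0.33). Among them Nfkbia, which encodes the inhibitor IkB alpha, was at 29.1, 35.4 and 32.1 FPKM against 14.6, 18.8 and 16.0 FPKM (0.93 ± 0.12, adjusted p = 0.131). Bcl3 and Nfkbie, which encode further IkB proteins, differed by 0.92 ± 0.12 and 0.99 ± 0.15 (adjusted p = 0.131 for each). The 3 named genes are inhibitors or modulators of NF-kB and are also known as its targets. The NF-kB count of higher genes was 6 without cytarabine library 2 and 6 among the libraries with little colon transcript.

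Downstream of CD28, of 22 kinase and adaptor genes of the phosphoinositide 3-kinase pathway, 1 was called higher and 5 lower, with a median of -0.07. Pik3ca, a catalytic subunit of the kinase, was at 10.9 ± 0.583 FPKM against 13.3 ± 0.261 FPKM (-0.26 ± 0.07, adjusted p = 0.182). Pdpk1, a kinase that activates AKT, and Lcp2, the adaptor SLP-76, differed by -0.46 ± 0.13 and -0.47 ± 0.14 (adjusted p = 0.185 and 0.2). Bcl10, which links antigen receptor signals to NF-kB, was the gene called higher (0.37 ± 0.10, adjusted p = 0.183). The lower count rested on the choice of libraries, at 11 without cytarabine library 1, 3 without cytarabine library 3, 2 without cytarabine library 2, control library 2 or control library 3, and 1 among the libraries with little colon transcript. Of 11 survival and growth genes known as outputs of these receptors, 1 was called higher and 2 lower (median 0.01). Bcl2 differed by 0.29 ± 0.11 (adjusted p = 0.277), whereas Bcl2l1, which encodes the survival protein BCL-XL, differed by -0.50 ± 0.14 (adjusted p = 0.19) and Myc by -0.56 ± 0.20 (adjusted p = 0.248). Without cytarabine library 1, 4 of these genes were called lower, and without cytarabine library 2, cytarabine library 3 or control library 3, 1 was. Bcl2 was not called without cytarabine library 1, control library 1 or control library 3. Over all 8 lists 27 of 95 genes were called higher and 10 lower, beside 7.6% and 9.81% of all genes tested. The lists were chosen with earlier results of these data known, so nothing is read from these counts.

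**Figure D5:**
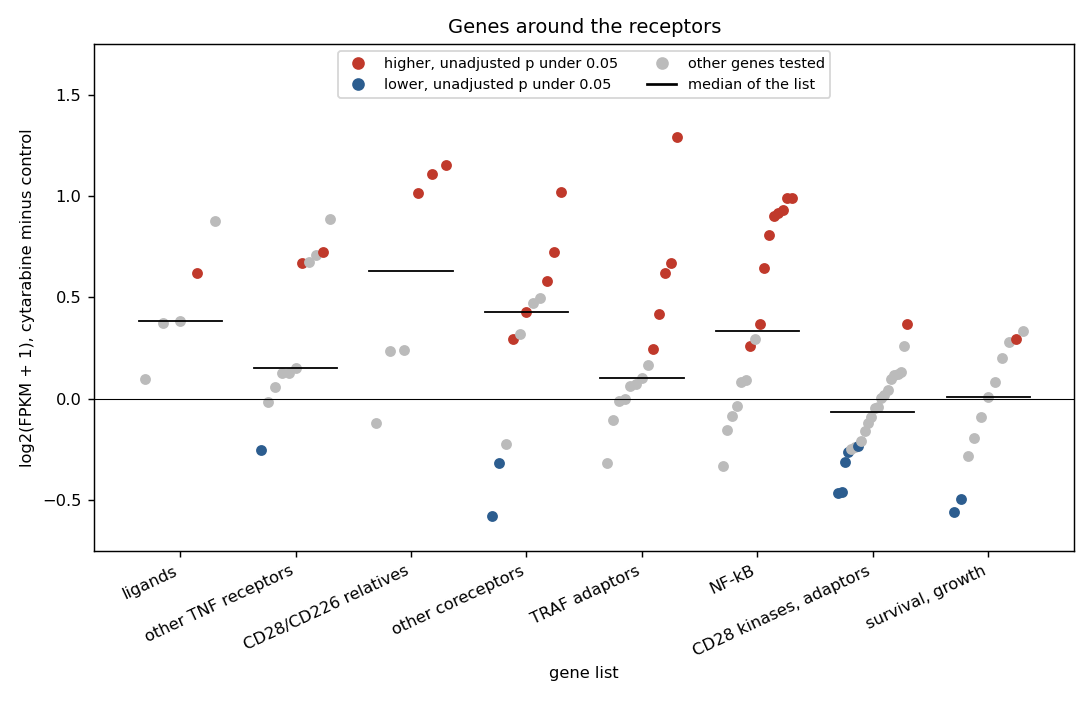
Each point is 1 tested gene of a list, placed by its difference in mean log2(FPKM + 1), cytarabine minus control, with red and blue for genes at an unadjusted p under 0.05 in limma and a line at the list's median. In the NF-kB list 9 of 16 genes are red and none blue, and in the CD28 kinase and adaptor list 1 of 22 is red and 5 are blue. Of all genes tested, 7.6% were called higher and 9.81% lower, and the lists were chosen with earlier results of these data known.

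Genes next to the receptors on the chromosomes were set beside them. Park7, 125 bases from the first annotated base of Tnfrsf9, differed by -0.28 ± 0.09 and was called lower (adjusted p = 0.21), opposite to Tnfrsf9. Camta1 overlaps Tnfrsf9 on the opposite strand and differed by -0.18 ± 0.18, and Vamp1 overlaps Cd27 in the same manner and differed by 0.35 ± 0.16 (adjusted p = 0.58 and 0.322). Whether counting used the strand is not given in the sources used here, and without strand the reads of such partners cannot be told apart. Sdf4 beside Tnfrsf4 differed by 0.08 ± 0.07, Vps13d beside Tnfrsf1b by -0.07 ± 0.11, Raph1 beside Cd28 by 0.01 ± 0.11 and Rttn beside Cd226 by -0.18 ± 0.11, none of them called. Ttll10, Pard3b and Tuba3a were under a mean of 1 FPKM, and Tnfrsf8 and Dok6 were listed at 0 in every library.

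The genes most like Tnfrsf9 and Cd28 across the 6 libraries were found by the root-mean-square difference between centered log2(FPKM + 1) profiles. For Tnfrsf9 they were Il2ra, the alpha chain of the interleukin-2 receptor (0.130), Arnt2, a transcription factor (0.204), and Dll1, a Notch ligand (0.230). Il2ra was at 11.3, 8.34 and 8.78 FPKM in the cytarabine libraries and at 1.24, 4.21 and 3.03 FPKM in the controls, and thus shared the order of the control libraries with Tnfrsf9. For Cd28 they were Ubd (0.125), Lcn4 (0.157) and Traf1 (0.165). The log2(FPKM + 1) scale understates the change of low genes, so near profiles can differ in their ratios of means. Ubd was at 2.34 against 0.248 FPKM (9.43-fold), Lcn4 differed 2.71-fold and Traf1 3.87-fold, beside 2.56-fold for Cd28. Il2ra differed 3.35-fold, Arnt2 5.36-fold and Dll1 2.18-fold, beside 3.50-fold for Tnfrsf9. Cd28 was itself 25th in likeness to Tnfrsf9 (0.42), and the member most like Cd28 was Tnfrsf18, in 58th place (0.33). Tnfrsf9 and Cd28 were searched because their groups did not overlap and their means reached 5 FPKM. Genes with a like difference between the groups therefore come first by construction, and nothing further is read from the likeness.

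Marker lists of lymphoid cells and macrophages were summed per library, and their sums did not all differ alike between the groups. The 8 regulatory T cell genes, of which Ikzf2 and Il2ra were highest, summed to 38.5 to 48.7 FPKM in the cytarabine group and 28.6 to 31.5 FPKM in the control group, with 4 of the 8 under 1 FPKM in every library. This list shares Il2ra and Ctla4 with the genes above, and both stood higher without overlap, whereas Ikzf2 and Foxp3 overlapped between the groups. Il2ra was also picked above as the gene most like Tnfrsf9, so its part in this sum is not separate from that result. The 8 NK cell genes, led by Klrk1 and Klrb1c, summed to 58.1 to 75.5 FPKM against 38.9 to 56.1 FPKM, and 4 of them stayed under 1 FPKM throughout. The 11 T cell genes, led by Cd3g and Cd3e, summed to 604 to 805 FPKM against 719 to 874 FPKM. Among them Cd3d (8.45 against 4.17 FPKM) and Themis (10.8 against 7.77 FPKM) were higher without overlap, and Bcl11b (4.23 against 5.91 FPKM) was lower. Over all genes tested, 10.9% were higher and 12.9% lower without overlap. The 6 B cell genes, led by Cd79a and Cd79b, summed to 6.67 to 14.8 FPKM against 6.16 to 7.76 FPKM. The 8 macrophage genes, led by C1qa and C1qc, summed to 12.6 to 58.3 FPKM against 11.5 to 149 FPKM. The part of these cells in the receptor values was not tested.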

How the data were processed

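Per the labels and the study's methods, stranded mRNA libraries were read as 75-base single ends, and the authors aligned them to mm10 with TopHat2 2.0.13, Bowtie2 2.2.3 and SAMtools 0.1.19. The authors deposited FPKM per gene from Cufflinks 2.2.1, and the gene annotation and counting options are not given in the sources used here. FPKM hold no read totals, so the depth was estimated through the spacing between small values in 3456 single-transcript genes, with fragments assumed to be 200 bases long, and 77.9 to 82.0% of low values lay within 0.15 of a whole read. Read numbers are approximate, and cover counting error only.

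The 11703 genes whose mean reached 1 FPKM were fitted as log2(FPKM + 1) with limma 3.58.1 in R 4.3.3 (eBayes with trend, two-sided, Benjamini-Hochberg over all genes). This scale understates the change of low genes. With 3 mice per group the p-values rest on the spread between these 6 libraries. On simulated data for this comparison with 11703 genes, 85% of 100 genes changed by 1 on the log2 scale and 90% of those changed by 2 were recovered at an unadjusted p under 0.05. The simulated noise was drawn separately for each gene, without the shared tissue transcripts of the real libraries. It gave calls for 5.28% of unchanged genes, whereas 17.4% of all genes were called in the data. The shares recovered are therefore no measure of power in the real libraries.

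The receptors and gene lists were chosen with earlier results of these data known. Named were the 8 receptors, ligands whose mean reached 1 FPKM, up to 3 genes per direction and list with the smallest p, chromosomal neighbours, the 3 genes most like each non-overlapping receptor whose mean reached 5 FPKM, and the 2 highest genes of each marker list. Low ligands, Foxp3, Cd4, Cd8a, Cd3d, Cd247, Cd5, Themis, Bcl11b and Itga2 were named in addition after their values were seen. Alternatives were other pseudocounts, filters, scalings and variance models, a replicate block, each library left out, and the libraries split by colon transcript. Same-numbered libraries came from different mice. Neighbours and positions are from GENCODE M21.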

Additional observations from a re-analysis of the deposited data

How the results depend on the processing

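The count of receptors higher without overlap was 4, fell to 2 after quantile normalization and to 2 when means had to reach 5 FPKM, and was 4 to 5 with 1 library left out. The count of those lower was 0, or 2 (Cd27 and Cd226) without cytarabine library 1, without control library 1, and on either side of the colon split. Fewer libraries let groups stand apart more easily, and the share over all genes is not given for these settings. The genes called at an unadjusted p under 0.05 numbered 2038, 1241 among the libraries with little colon transcript, and 1179 (without control library 3) to 4075 (without cytarabine library 1) with 1 library left out. Pathway genes called numbered 37, and 25 to 43 with 1 library left out. With the replicate block, 994 genes and 24 pathway genes were called. Between the cytarabine and the control library of replicate 1, 2 and 3, the departures from the group means correlated at -0.709, -0.247 and -0.594. The unequal tissue transcripts also enter these correlations, so they cannot show whether the replicate numbers pair the mice. An adjusted p of 0.05 was passed by 0 genes, by 1 with a pseudocount of 0.1, by 2 without the variance trend and by 12 among the libraries with much colon transcript. Among named genes other than receptors, 577 values under alternatives kept direction and side of the threshold, 69 lost the call, 7 gained it and 9 reversed. The reversed log2 differences were Pvr -0.049 and Raph1 -0.16 after quantile normalization, Raph1 -0.034 and -0.030 without control library 2 or 3 (range -0.034 to 0.099 with 1 library left out), Raph1 -0.17 among the libraries with much colon transcript, Vps13d 0.014 without control library 1 (range -0.13 to 0.014), and Pvrl2 -0.081, Camta1 0.17 and Sdf4 -0.0047 among those with little. The cause was not tested. No receptor reversed. Few reads lay behind Tnfrsf4 and Tnfrsf18, and the effect of depth on their differences was not tested.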
